A study of Rattus norvegicus with 4 samples.

Results

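Wnt signalling genes were followed in smooth muscle cells of the rat aorta, which contract to set the tone of the vessel, after 3 h of PDGF-BB (platelet-derived growth factor BB), which drives their growth and migration. The set holds genes whose annotated symbol begins with Wnt or Fzd and a digit, or with Sfrp, Dkk1 to Dkk4, Axin, Tcf7, Nkd or Rspo, or equals Lrp5, Lrp6, Lef1, Ctnnb1, Apc, Porcn, Ror1 or Ror2. Among 12922 genes with a probe set of a single symbol, 35 met this rule, through 54 of 23707 probe sets. Each gene was represented by its brightest probe set, and no probe set of a single symbol carried Ror1, Ror2 or Dkk1, which were not analysed here. Both groups were cells grown for 24 h in 10% serum and then kept for 72 h without serum and insulin. The vehicle group (2 Affymetrix arrays) received 0.2% bovine serum albumin in 10 mM acetic acid. The treated group (2 arrays) received PDGF-BB at 30 ng/mL, with the same albumin and acetic acid listed for it. The study looked for early genes of phenotypic modulation, the loss of contractile features by these cells. The labels do not name the strain, the age of the rats or whether a group's arrays were separate cultures, so p-values reflect only how much these arrays varied, which may be technical.

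Wnt proteins are secreted, lipid-modified ligands that bind Frizzled receptors together with the co-receptors Lrp5 or Lrp6. In the canonical branch this stops a destruction complex built on Axin and Apc from degrading beta-catenin, which then enters the nucleus and acts with TCF and LEF factors on target genes. Other Frizzled-dependent branches act on the cytoskeleton and on calcium. In vascular smooth muscle, Wnt signalling has been studied for its part in growth, migration and calcification.

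Values are deposited probe set intensities on a linear scale. Differences (PDGF-BB minus vehicle) are on the log2(intensity + 16) scale, which understates the change of dim genes, and a call is a limma adjusted p under 0.05 over all probe sets. As a rough yardstick of background, the highest value among 27 Bacillus control probe sets was 80.3, and 41.0% to 41.8% of probe sets on an array lay at or below it. All 12 smooth muscle markers measured were above it in at least 1 group, with summed intensities of 66086.8 to 67090.2 in vehicle and 62461.4 to 64231.4 in PDGF-BB, and 4 of them (Lmod1, Smtn, Myh11 and Mylk) were called lower. Of the markers of other cell types, 8 of 10 endothelial (summed 681 to 696 and 654 to 694), 9 of 11 leukocyte (1737 to 1760.0 and 1522 to 1605) and 4 of 9 fibroblast markers (1655 to 1672 and 1407 to 1540.1) were at or below it in both groups, and of these markers Esam (endothelial) and Scara5 (fibroblast) were called lower and Ly6c (fibroblast) higher. Pecam1 (endothelium) and Ptprc (leukocytes) read at most 13.7 and 23.4 on any array. Other markers were well above the yardstick, with means in vehicle and PDGF-BB of 1434 and 1209 for Cd14 (leukocyte) and 1144 and 1005 for Serpinf1 (fibroblast). The endothelial markers Egfl7 (302.5 and 355.7) and Esam (289 and 204.6) were above it too. The part of other cells in the results was not tested.

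After PDGF-BB, transcripts of the Wnt receptors Lrp6, Fzd2 and Fzd1 were 3.52-, 3.06- and 2.74-fold lower and that of the TCF factor gene Tcf7l2 2.06-fold lower (folds on the scale of intensity + 16). Its relative Tcf7 rose from values under the yardstick, by 2.41 on the log2 scale with the offset of 16 and by 1.76 with an offset of 64. Of the 35 Wnt genes, 8 were called lower (Lrp6, Fzd2, Fzd1, Nkd1, Tcf7l2, Sfrp2, Fzd8 and Porcn), 2 higher (Tcf7 and Wnt7a) and 25 did not pass. Among all 12922 genes, 27.7% were called, 15.3% lower and 12.4% higher, so the 28.6% of Wnt genes called lies near the background. By direction, 22.9% of the Wnt genes were called lower and 5.71% higher, and their median log2 fold change was -0.08 against -0.03 over all genes. The arrays of the groups did not overlap for 23 of the 35 genes, 14 with both PDGF-BB arrays below both vehicle arrays and 9 above, where 67.5% of all genes did not overlap, 37.8% below and 29.7% above. Quantile normalization and cyclic loess each gave 7 lower and 4 higher, where 37% and 33.8% of all genes were called. Of the 12922 genes, 2874 and 2242 were lower and 1901 and 2121 higher under these scalings. Fewer calls were made with 1 vehicle array: without either of them only Lrp6, Fzd2, Fzd1 and Tcf7 stayed called, 4 genes each time, and all genes together fell from 27.7% called to 6.12% or 6.55%.

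**Figure D1:**
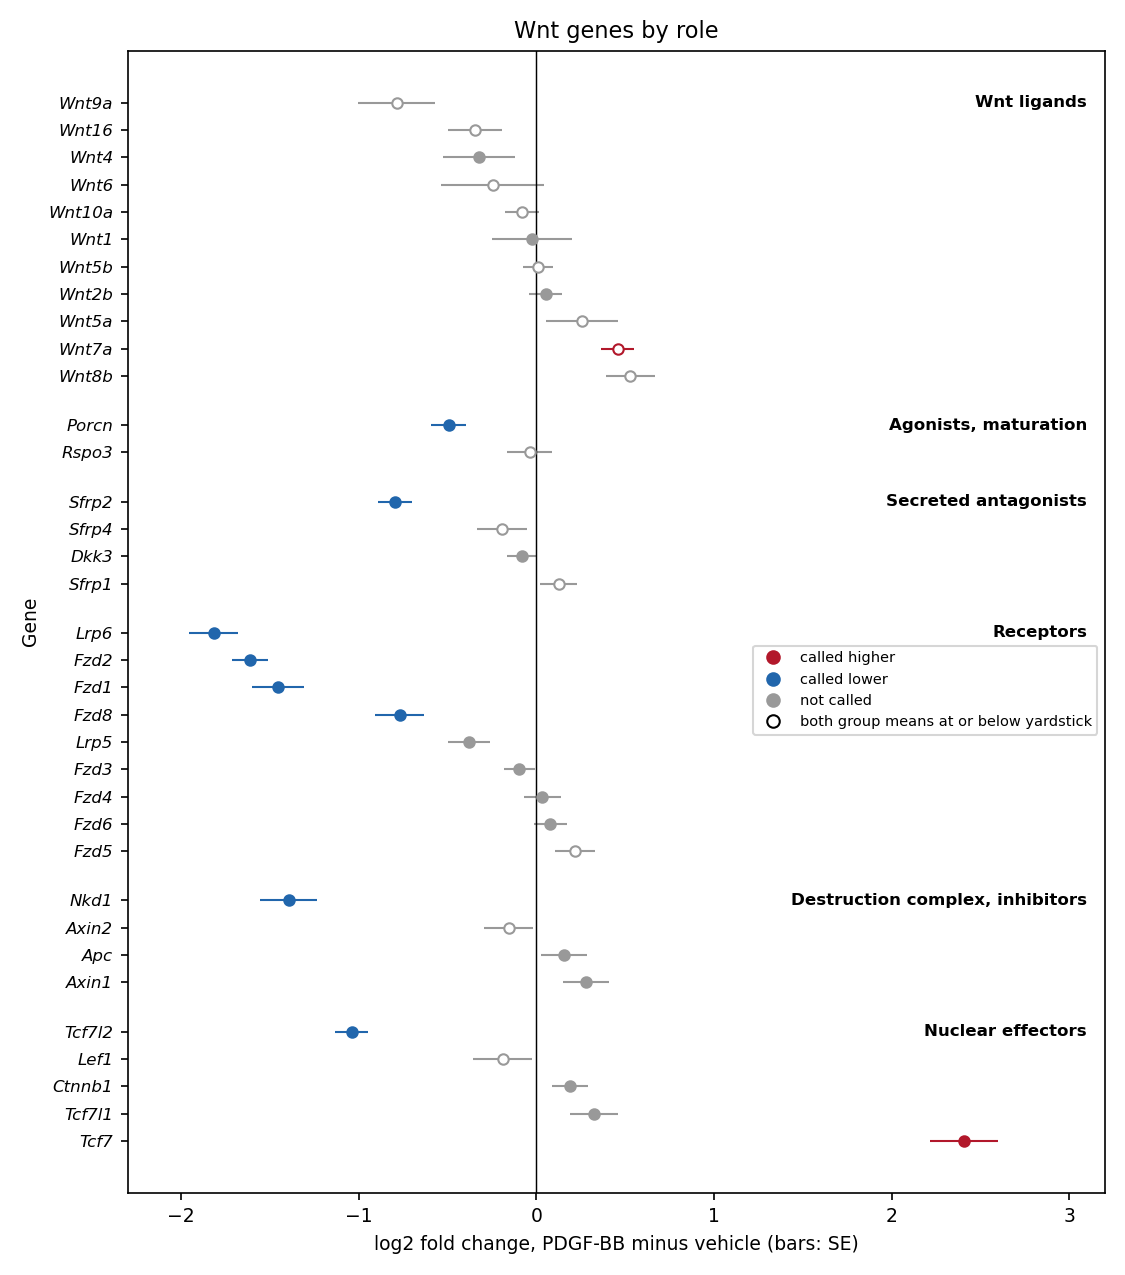
The log2 fold change, PDGF-BB minus vehicle, of each of the 35 Wnt genes is plotted by role on the horizontal axis, with the standard error as a bar; blue and red points were called lower and higher, grey points were not called, and open points had both group means at or below the background yardstick of 80.3. The 8 genes called lower reach -1.82 for Lrp6, Tcf7 stands alone at 2.41, and 8 of the 11 Wnt ligands are open points.

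Most ligand probe sets read near background. Of 11 measured Wnt ligands, 8 had both group means at or below the yardstick, and 1 was called, Wnt7a. Wnt7a, a ligand of the canonical and planar polarity branches, read 5.89 and 5.76 with vehicle and 12.8 and 15.3 with PDGF-BB, all far under the yardstick (log2 fold change 0.46, SE 0.09, limma adjusted p 0.0315). That call was lost whichever of the 4 arrays was left out (0.0512 to 0.191) and was also lost with an offset of 64 (0.134) and with an intensity trend in the variance (0.0668). Wnt1, the founding ligand of the family, read 249 and 226 with vehicle and 186 and 290.2 with PDGF-BB. Its arrays overlapped, and its log2 fold change of -0.02 (SE 0.22) had a 95% interval up to 0.57 and turned to between 0.05 and 0.10 under each of the 3 scalings between arrays.

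Wnt4, a ligand named in kidney and vascular development, read 105.4 and 104.7 with vehicle and 101 and 63.9 with PDGF-BB. Wnt2b read 94.0 and 88.9 against 91.6 and 99.4. These were the other two ligands above the yardstick in both groups, and neither was called (limma adjusted p 0.328 and 0.732), although Wnt4 passed without PDGF-BB replicate 1. Wnt5a, the ligand best known for the branches that do not use beta-catenin, read 67.6 and 45.4 with vehicle and 60.6 and 79.6 with PDGF-BB, with overlapping arrays and a limma adjusted p of 0.432. Wnt9a (49.0 on average with vehicle and 22.4 with PDGF-BB) and Wnt8b (4.76 and 14.1) missed the threshold at limma adjusted p of 0.0675 and 0.0602. Wnt9a passed with an offset of 64, with the intensity trend and without PDGF-BB replicate 2, and Wnt8b passed after quantile normalization or cyclic loess and without PDGF-BB replicate 1. Wnt10a, Wnt16, Wnt5b and Wnt6 lay between 0.82 and 25.1 on all 4 arrays and were not called.

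Porcn, the acyltransferase that attaches the lipid to Wnt proteins, was lower. It read 319 and 285 with vehicle and 209.7 and 209.4 with PDGF-BB, so the groups did not overlap (log2 fold change -0.49, SE 0.10, limma adjusted p 0.0306). The call was lost whichever array was left out (0.0849 to 0.206), with an offset of 1 (0.0553), and after quantile normalization (0.0559) or cyclic loess (0.0599). Rspo3, a secreted R-spondin that strengthens Wnt signals at the membrane, had means of 66.4 and 64.6, both under the yardstick, and was not called.

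Among the 4 secreted antagonists, Sfrp2 fell. Sfrp2 encodes a secreted Frizzled-related protein that binds Wnt ligands outside the cell. It read 244 and 225 with vehicle and 132 and 124 with PDGF-BB, with no overlap (log2 fold change -0.80, SE 0.10, limma adjusted p 0.00867). The call missed the threshold without vehicle replicate 1 (0.0857) or 2 (0.0661). Dkk3, a Dickkopf family member, read 122 on each vehicle array and 113 and 116 with PDGF-BB. It was not called, and the 95% interval of its log2 fold change was -0.31 to 0.15. Sfrp4 and Sfrp1 were under the yardstick in both groups, with means of 33.7 and 27.6 for Sfrp4 and 13.8 and 16.4 for Sfrp1. A dimmer Sfrp1 probe set, at 2.41 and 3.08 with vehicle and 8.90 and 8.12 with PDGF-BB, was called higher (limma adjusted p 0.0415), and the brightest was not (0.446).

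Receptor transcripts held the largest decreases of the set. Of 9 receptors and co-receptors, 4 were called lower, 0 higher and 5 did not pass by limma, with a median log2 fold change of -0.38, by their brightest probe sets. That is 44.4% called lower, where 15.3% of all genes were. All of these receptors but Fzd5 were above the yardstick in at least 1 group, and of all such genes 20.2% were called lower. The 44.4% still counts Fzd5, so these shares are not over matching sets. At an unadjusted limma p under 0.05 the count of higher receptors on these probe sets was also 0. A second Fzd4 probe set was called higher. Lrp6, the co-receptor that recruits Axin to the membrane, read 1392 and 1538 with vehicle and 449 and 364 with PDGF-BB. Both treated arrays lay far below both vehicle arrays (log2 fold change -1.82, SE 0.14, limma adjusted p 0.00331). This was the 84th lowest log2 fold change among the 12922 genes. In these bulk samples, fewer cells with the transcript and less of it per cell cannot be told apart.

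Fzd2, a Frizzled receptor of both the canonical and the calcium branch, read 4830.01 and 4689.7 with vehicle and 1636 and 1462 with PDGF-BB (log2 fold change -1.61, SE 0.10, limma adjusted p 0.00223). Fzd1, a receptor closely related to Fzd2, read 932 and 1071 with vehicle and 394 and 319 with PDGF-BB (log2 fold change -1.45, SE 0.15, limma adjusted p 0.00579). In both genes the treated arrays lay well below the vehicle arrays. The calls of Lrp6, Fzd2 and Fzd1 were kept in every fit that left out 1 array and in each other alternative run. Fzd8, a further Frizzled receptor, read 387 and 388 with vehicle and 249 and 195 with PDGF-BB. Its decrease of -0.77 on the log2 scale (SE 0.14, limma adjusted p 0.0234) missed the threshold without vehicle replicate 1 (0.128) or 2 (0.126) and with an offset of 1 (0.0542).

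Of 7 Frizzled genes measured, the other 4 were not called on their brightest probe sets. Fzd7, Fzd9 and Fzd10 had no probe set of a single symbol. Fzd6 read 557 and 567 with vehicle and 617 and 573 with PDGF-BB (log2 fold change 0.08), with a 95% interval of -0.17 to 0.33. Fzd3 read 114 and 119 against 107 and 109 (log2 fold change -0.10, 95% interval -0.33 to 0.14). For both, decreases as large as those of Fzd1 and Fzd2 lay outside the 95% interval, although the difference between the genes was not itself tested. Fzd5 was under the yardstick in both groups. Fzd4 and Lrp5 gave different answers by probe set and are described with the repeated probe sets.

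**Figure D2:**
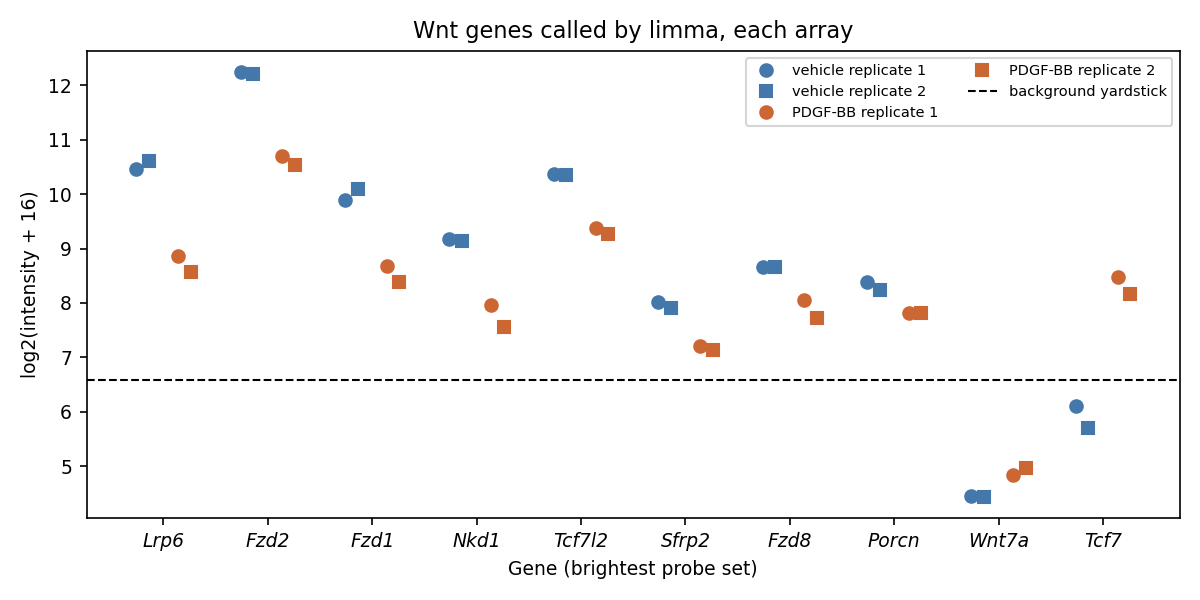
Each of the 10 called Wnt genes is shown on the horizontal axis with its 4 arrays as points on a log2(intensity + 16) axis, vehicle in blue and PDGF-BB in orange, replicate 1 as circles and replicate 2 as squares; the dashed line marks the background yardstick. The treated points lie below the vehicle points for the 8 genes from Lrp6 to Porcn, Wnt7a lies wholly under the line, and Tcf7 crosses it.

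Inside the cell, the negative regulator Nkd1 fell and the scaffold genes of the destruction complex were not called. Nkd1, naked cuticle, binds Dishevelled and dampens Wnt signals, and is itself a reported target of beta-catenin. It read 563 and 547 with vehicle and 234 and 172 with PDGF-BB (log2 fold change -1.39, SE 0.16, limma adjusted p 0.00820). The 2 dimmer Nkd1 probe sets gave -1.39 and -1.24, both called. For the brightest, the adjusted p was 0.0615 without vehicle replicate 1 and 0.0573 without vehicle replicate 2. Axin1 read 592 and 640.1 with vehicle and 829 and 681 with PDGF-BB, higher on both treated arrays but not called (log2 fold change 0.28, SE 0.13, limma adjusted p 0.204). Apc read 739 and 749.8 with vehicle and 922 and 748 with PDGF-BB, with overlapping arrays (limma adjusted p 0.459). Axin2, widely used as a readout of canonical signalling because beta-catenin induces it, read 66.5 and 52.1 with vehicle and 47.8 and 54.9 with PDGF-BB, below the yardstick in both groups (log2 fold change -0.16, 95% interval -0.52 to 0.21).

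Since Nkd1 and Axin2 are both reported beta-catenin targets, their promoters were set side by side. RefSeq promoter windows (GRCr8) were found for 25 of the 35 genes, 8 of them called. The 250 bases before the start are printed 5′ to 3′ on the gene's strand, with matches to the searched motifs in capitals: the TCF/LEF words CTTTGAA and CTTTGAT and the FOXO word TGTTTAC in these windows. The Nkd1 window is chr19:34722847-34723096 on the minus strand, next to the gene's outer start. The Axin2 window is chr10:94398535-94398784 on the plus strand, before a start inside the annotated gene.
Nkd1: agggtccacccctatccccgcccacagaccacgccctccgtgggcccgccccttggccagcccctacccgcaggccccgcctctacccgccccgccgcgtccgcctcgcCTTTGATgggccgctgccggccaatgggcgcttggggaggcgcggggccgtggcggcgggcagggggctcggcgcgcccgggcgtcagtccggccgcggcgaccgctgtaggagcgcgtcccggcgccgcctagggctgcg
Axin2: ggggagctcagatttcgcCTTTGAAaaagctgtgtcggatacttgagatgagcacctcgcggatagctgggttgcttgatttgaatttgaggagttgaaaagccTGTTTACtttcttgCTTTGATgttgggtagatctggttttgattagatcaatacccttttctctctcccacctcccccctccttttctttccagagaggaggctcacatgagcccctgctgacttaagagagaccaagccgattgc
Nkd1 held CTTTGAT 141 bases before its start, and Axin2 held CTTTGAA at 232 bases, TGTTTAC at 146 and CTTTGAT at 132. Of all 27457 gene promoters of this length, one window per gene and both strands searched, 3.18% held CTTTGAT, 4.63% CTTTGAA and 3.25% TGTTTAC. None of the other windows, of 25 in all, held CTTTGAA or CTTTGAT. A match is a description of the sequence and not of binding. Of the 2 genes with these words, Nkd1 was called lower, and Axin2, under the yardstick in both groups, was not called. The difference between them was not tested.

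The nuclear effectors split by gene. Tcf7, which encodes TCF1, rose from 53.2 and 36.4 with vehicle to 340.5 and 271 with PDGF-BB (log2 fold change 2.41, SE 0.19, limma adjusted p 0.00363). Both vehicle values were under the yardstick and both treated values over it, and the log2 fold change ranged from 1.76 with an offset of 64 to 2.76 with an offset of 1. Tcf7l2, which encodes TCF4, fell from 1310.5 and 1295 to 652 and 599.8 (log2 fold change -1.04, SE 0.09, limma adjusted p 0.00466). The Tcf7 call was kept in each fit that left out 1 array; that of Tcf7l2 was narrowly missed without vehicle replicate 1 (0.0530) or 2 (0.0506).

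The remaining effectors were not called. Ctnnb1, the beta-catenin gene, read 5615 and 5804 with vehicle and 6176 and 6889 with PDGF-BB (log2 fold change 0.19, SE 0.10, limma adjusted p 0.250) with a 95% interval of -0.08 to 0.46. It passed the test in the fit with an intensity trend (0.0345). Tcf7l1, which encodes the mostly repressive TCF3, read 392 and 384 against 549 and 438, higher on both treated arrays (log2 fold change 0.33, limma adjusted p 0.166), and was called after quantile normalization or cyclic loess. Lef1 was under the yardstick in both groups, at 41.5 and 43.1 with vehicle and 28.2 and 43.1 with PDGF-BB.

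The promoters of the 2 TCF genes that moved in opposite directions are printed in the same way, with the EGR word GCGNGGGCG in capitals on either strand. The Tcf7 window is chr10:36954280-36954529 on the minus strand and the Tcf7l2 window chr1:264791085-264791334 on the plus strand, both next to the gene's outer start.
Tcf7: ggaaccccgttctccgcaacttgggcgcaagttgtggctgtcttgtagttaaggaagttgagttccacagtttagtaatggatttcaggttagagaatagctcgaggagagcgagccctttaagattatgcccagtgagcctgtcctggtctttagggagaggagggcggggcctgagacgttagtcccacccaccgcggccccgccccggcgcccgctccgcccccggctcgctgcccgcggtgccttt
Tcf7l2: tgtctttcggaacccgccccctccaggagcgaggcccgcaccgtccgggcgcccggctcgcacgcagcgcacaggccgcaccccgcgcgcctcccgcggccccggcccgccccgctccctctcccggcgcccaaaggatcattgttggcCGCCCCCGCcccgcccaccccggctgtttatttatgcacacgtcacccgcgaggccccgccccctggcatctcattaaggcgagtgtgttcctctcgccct
The Tcf7l2 window held the EGR word on its opposite strand, from 101 to 93 bases before the start, and the Tcf7 window held none of the capitalised motifs. Besides those named, the search covered TGANTCA (AP-1), CACGTG (E-box), CCGGAAGT (ETS), TGACGTCA (CRE), the CArG box of serum response factor and, not capitalised, the GC box GGGCGG, which can overlap the EGR word. The EGR word was in 5 of the 25 Wnt gene windows (Wnt5a, Wnt6, Wnt7a, Wnt9a and Tcf7l2) and in 4.53% of all promoters. The GC box was in 15 of the 25, Nkd1, Tcf7 and Tcf7l2 among them, and in 32.4% of all promoters. The Wnt gene windows had a median GC content of 63.6% against 52.0% for all promoters, which bears on how often such GC-rich words occur by composition, and its part was not tested. TGANTCA was in 2 Wnt gene windows (6.36% of all), CACGTG in 2 (5.79%), and CCGGAAGT, TGACGTCA and the CArG box in 0 (3.29%, 1.7% and 1.5%).

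Of the 35 genes, 12 had several probe sets. Nkd1 was called lower by 3 of 3 probe sets. Tcf7l2 was called by 3 of 4, at -1.04, -1.29 and -1.01, and the fourth, under the yardstick in both groups, gave -0.66. Fzd4, a receptor for Wnts and norrin, gave 0.03 (SE 0.10) on its brightest probe set, at 1910 and 1789 with vehicle and 1799 and 1992 with PDGF-BB. Its other probe set read 128 and 151 with vehicle and 327 and 326 with PDGF-BB and was called higher (log2 fold change 1.15, SE 0.11, limma adjusted p 0.00556), so the call and the size of the difference for Fzd4 depend on the probe set. Lrp5, the close relative of Lrp6, read 152 and 135 with vehicle and 115 and 98.2 with PDGF-BB on its brightest probe set, a log2 fold change of -0.38 that missed the threshold (limma adjusted p 0.0922). Its second probe set, at 95.1 and 81.3 against 51.4 and 50.6, was called lower by 0.63 (0.0196). For Ctnnb1, the 3 probe sets over the yardstick gave 0.19, 0.36 and 0.29, none called. No gene had probe sets called in both directions.

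**Figure D3:**
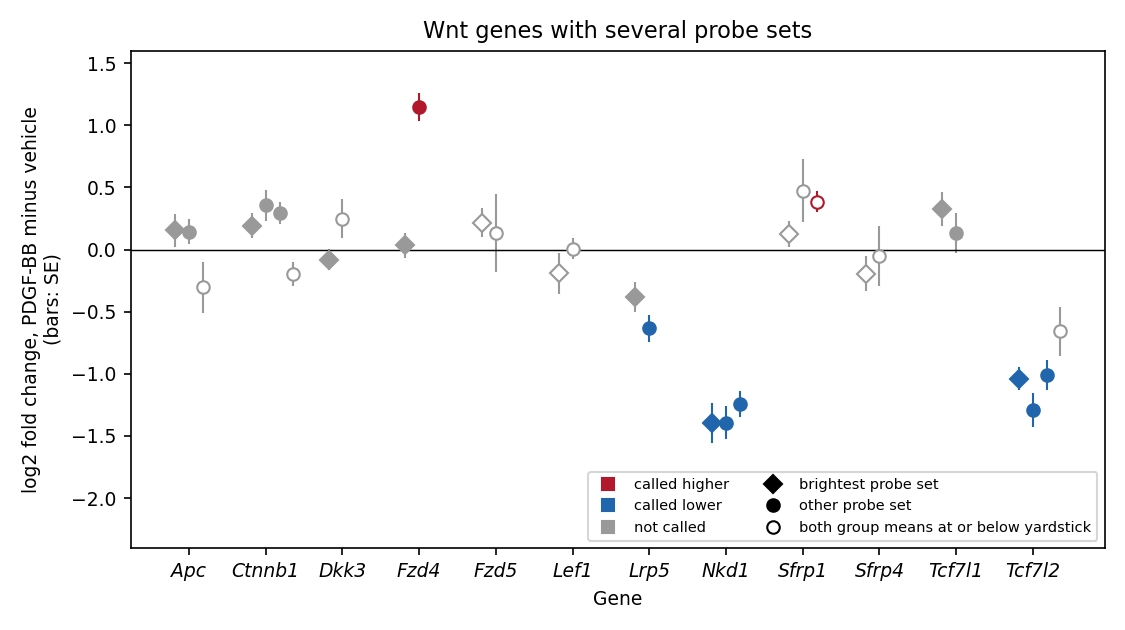
For the 12 Wnt genes with several probe sets, each point is 1 probe set's log2 fold change, PDGF-BB minus vehicle, with its standard error; diamonds mark the brightest probe set, circles the others, open symbols those at or below the background yardstick in both groups, and colours the call. The 3 Nkd1 probe sets lie together near -1.39 and -1.24, while those of Fzd4 lie apart, at 0.03 and 1.15.

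Genes of the pathway outside the rule moved in both directions. Of 99 measured genes in 3 lists of further pathway members, 16 were higher, 13 lower and 70 did not pass, 29.3% against 27.7% of all genes, with a median log2 fold change of 0.01. Among 18 extracellular and membrane proteins, 3 were higher and 2 lower, 27.8% called. Apcdd1, an inhibitor of Wnt signalling at the membrane, fell from 773 and 786 to 278 and 266 (log2 fold change -1.47, SE 0.09, limma adjusted p 0.00195). The R-spondin receptors Lgr4, Lgr6 and Lgr5 rose by 0.58, 0.58 and 0.90, the last with both group means under the yardstick. Tspan12, a partner of Fzd4, fell by 0.39. Of these 5 calls, that of Apcdd1 held in each fit that left out 1 array, Lgr6 held only without PDGF-BB replicate 1 (0.0470), and Lgr4, Lgr5 and Tspan12 held in none of them (0.0528 to 0.228). Lgr6 was also lost with an offset of 1, and Tspan12 with an offset of 1 and with array medians subtracted.

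Among 48 cytoplasmic and nuclear proteins, 8 were higher and 7 lower, 31.2% called against 27.7% of all genes. Frat2, which binds the kinase GSK3 and hinders its action on beta-catenin, fell from 225 and 238 to 37.4 and 40.8 (log2 fold change -2.17, SE 0.09, limma adjusted p 0.000934), with both treated values under the yardstick, so the size is uncertain. Dact3, a Dishevelled antagonist, fell by 1.72 and Cdh11, a cadherin that binds beta-catenin, by 1.15. The Groucho family corepressors, which bind TCF factors, went in different directions: Tle1 rose by 1.32 and Tle3 by 0.96, and Tle2 fell by 0.83. Tle4, above the yardstick in both groups, was not called (log2 fold change -0.04). The calls of Frat2, Dact3, Cdh11 and Tle1 held in each fit that left out 1 array, while Tle3 missed the threshold without vehicle replicate 1 (0.0601) or 2 (0.0715), as did Tle2 (0.0764 and 0.0692).

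In the planar polarity and calcium branches, 5 of 33 genes were higher and 4 lower, 27.3% called against 27.7% of all genes. Nfatc1, a calcium-regulated transcription factor, rose from 48.2 and 38.6 to 247 and 213 (log2 fold change 2.05, SE 0.13, limma adjusted p 0.00242), with both vehicle values under the yardstick, so the size is uncertain. The protein kinase C gene Prkca rose by 1.13 and the calmodulin kinase gene Camk2d by 0.89, while Nfatc3 fell by 0.73 and Prickle2, a planar polarity protein, by 0.99. With vehicle replicate 1 left out, adjusted p by limma was 0.0539 for Prkca, 0.0664 for Camk2d, 0.0950 for Nfatc3 and 0.103 for Prickle2, and without vehicle replicate 2 it was 0.0531, 0.0573, 0.1000 and 0.0719. Prickle2 also missed the threshold without PDGF-BB replicate 2 (0.0617).

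Of 45 measured genes reported elsewhere as beta-catenin targets that were outside the rule, 14 were higher, 6 lower and 25 did not pass, with a median log2 fold change of 0.08. That is 44.4% called against 27.7% of all genes. Other pathways also induce many of these genes. The smallest p-values were those of Fosl1, Cd44, Plaur, Fst, Jag1 and Myc, of which Jag1, a Notch ligand, fell by 3.66 on the log2 scale and the others rose. The hyaluronan receptor gene Cd44 rose from 154 and 157 to 3026 and 2835 (log2 fold change 4.10, SE 0.09), and Fst, which encodes the activin binder follistatin, from 342 and 363 to 4583 and 4803 (3.68, SE 0.09), each with a limma adjusted p of 0.000433. Targets that are also in the Wnt set or a pathway list went both ways. Nkd1 and Apcdd1 were lower, Tcf7, Btrc (0.79) and Lgr5 higher, and Axin2, Lef1 and Znrf3 (-0.08) not called. The Btrc call was lost without vehicle replicate 1 (0.123) or 2 (0.110).

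**Figure D4:**
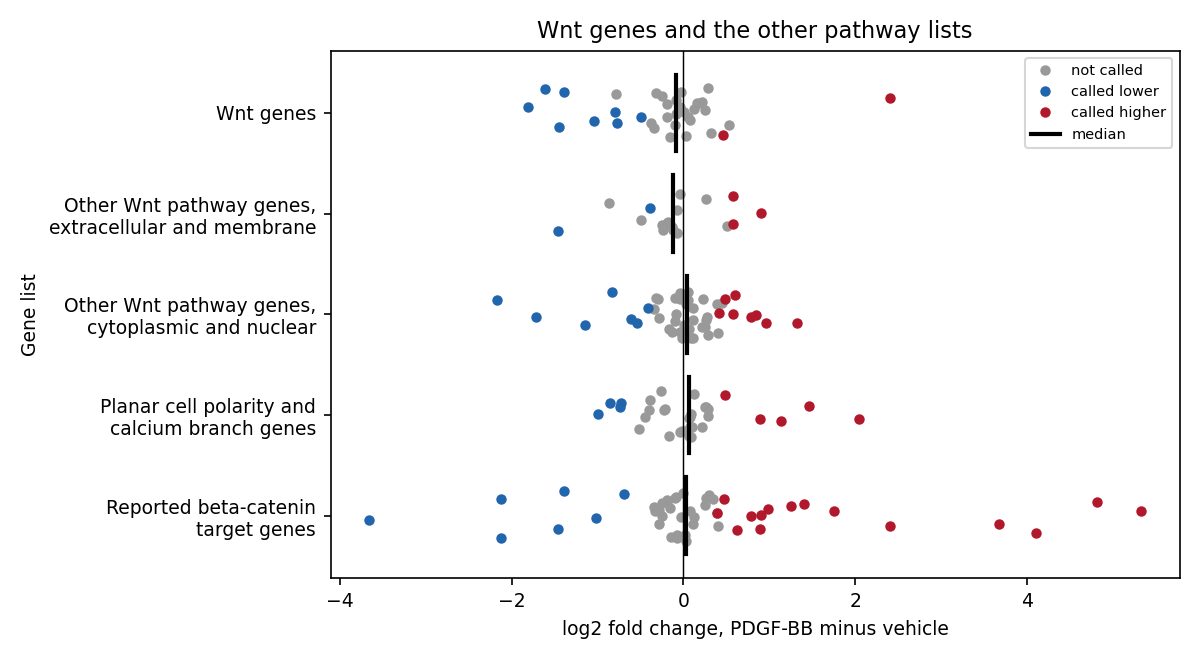
Each point is 1 gene's log2 fold change, PDGF-BB minus vehicle, on the horizontal axis, in rows for the 35 Wnt genes and the 4 further lists (the target list here includes its 4 Wnt genes of the rule); blue and red mark genes called lower and higher, and the black bar is the row's median. All 5 medians lie between -0.12 and 0.07, with called genes on both sides in every row.

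The treated arrays differed slightly from each other over much of the intensity range. Among probe sets with mean intensities of 128 to 512, PDGF-BB replicate 1 exceeded replicate 2 by a median of 0.17 on the log2 scale, while the vehicle arrays differed by -0.02. All 8 Wnt genes called lower had the lower value on PDGF-BB replicate 2, as did 86.1% of all genes called lower. So did 70.9% of all 12922 genes and 19 of the 35 Wnt genes (54.3%). For Porcn the PDGF-BB values were nearly equal, at 209.7 and 209.4. Leaving out PDGF-BB replicate 2 makes each of these 8 decreases smaller by arithmetic, so this outcome was fixed in advance and tests nothing. Without that array, the log2 fold changes of the 8 genes ran from -1.67 (Lrp6) to -0.492 (Porcn), against -1.82 to -0.493 with all arrays. Under the scalings between arrays, 7 or 8 Wnt genes were called lower, where 2010 to 2874 of all genes were, against 1971 in the main fit. The part of this offset in the decreases was not tested.

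**Figure D5:**
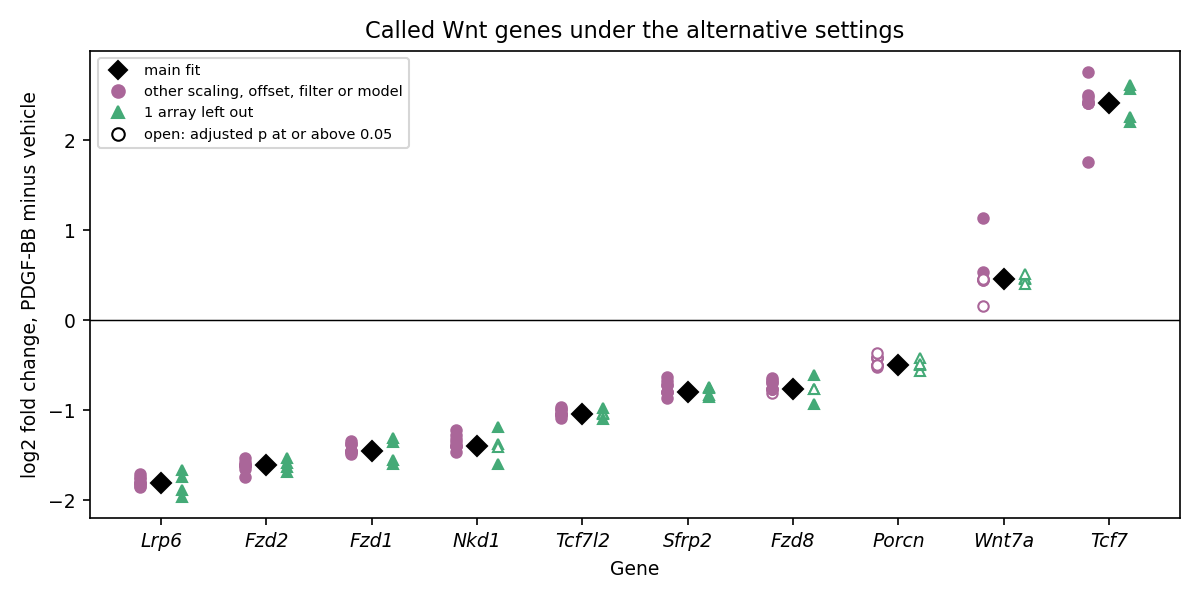
The log2 fold change of each of the 10 called Wnt genes is plotted on the vertical axis under the main fit (black diamonds), under other scalings, offsets, filters and variance models (purple circles) and with 1 array left out (green triangles); open symbols missed the threshold of 0.05. All points of Lrp6, Fzd2, Fzd1 and Tcf7 are filled, most of those of Porcn and Wnt7a are open, and no point crosses 0.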

How the data were processed

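RNA of 4 samples was measured on Affymetrix arrays as biotin-labelled cRNA, per the labels' protocols. The deposited table holds the authors' probe set intensities on a linear scale; the software, background correction and scaling they used were not given in the sources here. Of 23764 probe sets, 57 controls were left out. By the platform annotation, 17279 probe sets had 1 symbol and 373 several, and 6055 without one stayed unnamed. All 35 Wnt genes matched a RefSeq gene, with 0 symbols changed.

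The test used log2(intensity + 16), not rescaled, in limma 3.58.1 (lmFit, eBayes; R 4.3.3). Its p-values are two-sided and Benjamini-Hochberg adjusted over 23707 probe sets. The procedure was tested on simulated data, drawn with the moderated spreads of the real fit. Changes of the largest size simulated were recovered and most of the smallest were not, so a gene that was not called may have changed. The simulation left 23507 of 23707 probe sets unchanged, where 27.7% of all genes were called in the data. The adjusted p depends on that share, so the recovery rates do not carry over to the real fit. With unmoderated spreads, tried earlier, fewer changes were recovered. Sample titles gave the group and replicate number. With 2 arrays a group, an exact permutation test cannot go below 0.333, so none was run, and the number of arrays limits the precision. Median intensities were 132 to 148 per array. Replicates correlated at 0.993 to 0.995 across probe sets, groups at 0.959 to 0.963. Every Wnt gene is accounted for; the rule gave array values for those called and the brightest of each role, and others were added after their values were seen. Up to 6 called genes with the smallest p are named per further list, and 1 result under that rule is not reported here. The members and lists were chosen with earlier results of these data known. Promoters are RefSeq sequences of GRCr8, the first window listed per gene, and the motifs were picked after the expression results were known. Alternatives covered the offset, scaling, a filter on dim probe sets, the variance model, the probe set, a replicate block and leaving out each array.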

Additional observations from a re-analysis of the deposited data

How the results depend on the processing

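The 10 called Wnt genes kept their direction under every alternative. Over the called Wnt genes and Wnt1, Apc and Ctnnb1, 132 of the alternative values kept their call, 25 lost it, 1 gained it and 7 changed sign; the latter belonged to genes that were not called: Wnt1, at 0.0518 with array medians subtracted, 0.0661 after quantile normalization, 0.10 after cyclic loess and -0.32 to 0.27 with 1 array left out, Apc, at -0.30 on a probe set far below the yardstick, and Ctnnb1, at -0.20 on a probe set also below it. With 1 array left out, the count of called Wnt genes ranged from 4 to 10, of higher ones from 1 to 2 and of lower ones from 3 to 8, that of the other pathway genes from 7 to 20 (29 with all arrays) and that of the reported targets, Wnt genes included, from 13 to 19 (22). Such a fit leaves 1 group with a lone array, assumed to vary like the other group's. In each of these fits the share of all genes called was also below that of the main fit. The lower counts alone therefore show nothing particular to these lists. Higher Wnt genes numbered 1 with an offset of 64, 1 with dim probe sets left out, 1 with the replicate block and 4 after quantile normalization or cyclic loess. In the same order, 1980 of 12922, 2033 of 9104, 1375, 1901 and 2121 of 12922 genes were called higher, against 1603 in the main fit. The other pathway genes called numbered 19 with an offset of 1 and 44 with an intensity trend, settings under which 20.0% and 36.5% of all genes were called. Same-numbered arrays share only a number: their deviations correlated at -0.10 across probe sets, and with the replicate block 9 Wnt genes were called, 8 of them also called without it; Porcn (0.0551) and Wnt7a (0.0657) missed the threshold and Wnt9a passed. Tspan12 was also lost with the block. Low signal limits 14 of the 35 genes, at or below the yardstick in both groups.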
